A study of Mus musculus with 4 samples.

Results

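The regions described here are Runx3 peaks that lay between genes but close to them and that both assays of the study found. They were the ChIP peaks on chromosomes 1 to 19 and X that overlapped a CUT&RUN peak by at least 1 bp and whose summit lay outside every gene span of the RefSeq table, over 1 kb and up to 25 kb from the nearest gene end. There were 1286 such peaks among the 13166 peaks of the ChIP list. The members were thus chosen by their presence in both peak lists and by the position of the ChIP summit. They made up 14.8% (95% interval 14.1 to 15.6) of the 8694 shared ChIP peaks on these chromosomes. The genes counted were of any kind, so that "near" a gene did not always mean near a protein-coding gene: 373 of these peaks had no protein-coding gene within 25 kb.

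The study mapped Runx3 in CD8 T cells from the spleens of wild type adult mice, purified with magnetic beads against CD8a. For ChIP, 50000000 cells from 5 mice were frozen, sonicated and captured with a rabbit antiserum against Runx3, and a whole cell extract was the control. For CUT&RUN, in which an antibody guides a nuclease that frees only the DNA around its target, 150000 fresh cells from 1 mouse received the same antiserum. A CUT&RUN library with normal rabbit serum in place of the antiserum was not analysed here. Each assay had 1 library, so the values below have no replicate check, no p-value is given, and all intervals cover counting error only. Cell number, freezing, mice and peak calling differed together between the assays and cannot be told apart.

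Runx3 belongs to the RUNX transcription factors. It binds DNA with the partner subunit CBFβ at short sites with the core letters TGTGGT and can activate or repress genes through recruited cofactors. In the thymus it is known to silence Cd4 and to support Cd8 expression, and in peripheral CD8 T cells it is known for its part in the cytotoxic and tissue-resident programmes. Sequence between genes holds many enhancers, elements that act on promoters at a distance, so the gene next to a peak is not by itself its target.

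The sequences that these peaks lie beside were of 2 kinds. Mature microRNAs (miRNAs) are shown first because some of the peaks lay beside miRNA genes that are known from lymphocytes. They are not shown for being frequent: 16 of the peaks (1.24%) had a miRNA gene as their nearest gene, while 2.48% of the genes in the table are miRNA genes. The sequences are RefSeq's (GRCm38.p6), and the seed, bases 2 to 8, is in capitals.
mmu-miR-142a-5p: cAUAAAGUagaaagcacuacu
mmu-miR-142a-3p: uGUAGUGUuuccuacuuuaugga
mmu-miR-23a-3p: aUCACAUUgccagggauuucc
mmu-miR-27a-3p: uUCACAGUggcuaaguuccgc
mmu-miR-24-3p: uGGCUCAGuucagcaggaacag
mmu-miR-181c-5p: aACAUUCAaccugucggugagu
mmu-miR-181d-5p: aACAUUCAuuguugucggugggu
mmu-let-7a-5p: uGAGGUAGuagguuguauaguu
mmu-let-7d-5p: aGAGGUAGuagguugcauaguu
mmu-let-7f-5p: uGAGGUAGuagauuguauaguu
mmu-miR-146a-5p: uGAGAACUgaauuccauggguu
The let-7 sequences share the seed GAGGUAG, and miR-181c-5p and miR-181d-5p share the seed ACAUUCA. The others printed have seeds of their own.

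Promoters are the other kind. Among the listed genes that had at least 1 of these peaks in their flank and a further shared peak at the promoter itself, 4 promoter windows held the RUNX letters before the start. They belonged to Lck, Runx3, Il21r and Srgn. Those of Lck and Runx3, which lie outside the gene span, are shown as stretches of 100 bases before the gene's start (RefSeq GRCm38.p6), written 5′ to 3′ on the gene's strand, with the letters TGTGGT, or ACCACA for the other strand, in capitals.
Lck (chr4:129573647-129573746, minus strand): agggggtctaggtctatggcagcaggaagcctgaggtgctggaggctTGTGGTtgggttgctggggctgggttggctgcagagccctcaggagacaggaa
Runx3 (chr4:135120464-135120563, plus strand): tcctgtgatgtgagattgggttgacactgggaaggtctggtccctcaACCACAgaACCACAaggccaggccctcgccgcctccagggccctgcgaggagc
At Lck the promoter ChIP summit lay 1 bp from the centre of the letters (ChIP pileup 22, CUT&RUN pileup 76), and at Runx3 3 bp from the nearer of 2 matches (58 and 180). At Il21r (15 and 30) the distance was 14 bp and at Srgn (24 and 22) 144 bp, and both of these windows lay before a start inside the gene span. A match is a description of the letters, not of a bound site. Over whole promoter windows, from 250 bases before to 50 after a start, the letters stood on either strand in 12.2% of 1250 windows of genes with at least 1 of these peaks in their flank. They stood in 14.9% of 19795 windows of the other protein-coding genes, in 14.7% of all 21045 windows, and in 19.9% of the 2281 windows that held a shared summit.

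Peak height is given as the pileup, the number of distinct fragments over the summit. In bulk cells, binding in more cells and stronger binding per cell give the same pileup. The ChIP library kept 9532996 fragments after duplicate removal and the CUT&RUN library 14068364. Pileups of the assays are therefore read each within its own list, with a rank among 13166 ChIP and 15891 CUT&RUN peaks. The 1286 peaks were chosen with both lists, so their heights and overlaps describe them and are no test.

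The peaks between genes were higher, by their medians, than shared peaks at gene edges. Their median pileup was 15 fragments in ChIP (quartiles 11 and 21) and 37 in CUT&RUN (23 and 59.8). Shared peaks at gene edges, within 1 kb of a gene end, had medians of 13 in ChIP and 30 in CUT&RUN. Those elsewhere inside genes had 14 and 34, and those over 25 kb from any gene had 15 and 41. Of the peaks between genes, 231 stood in the top 10% of the ChIP list, which is 18% (15.9 to 20.2), against 11.8% (10.8 to 12.9) of edge peaks, 15.9% (14.6 to 17.1) inside genes and 18.7% (14 to 24) over 25 kb from genes. In the CUT&RUN list the share in the top 10% was 21.4% (19.2 to 23.7), against 10.8% (9.83 to 11.8) at edges, 17.5% (16.2 to 18.8) inside genes and 24.6% (19.4 to 30.4) over 25 kb from genes. The intervals of the peaks between genes and of the edge peaks do not overlap in either assay. Peaks of 1 library are not replicates, and both kinds were chosen with both lists, so this is a description and no test.

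**Figure D1:**
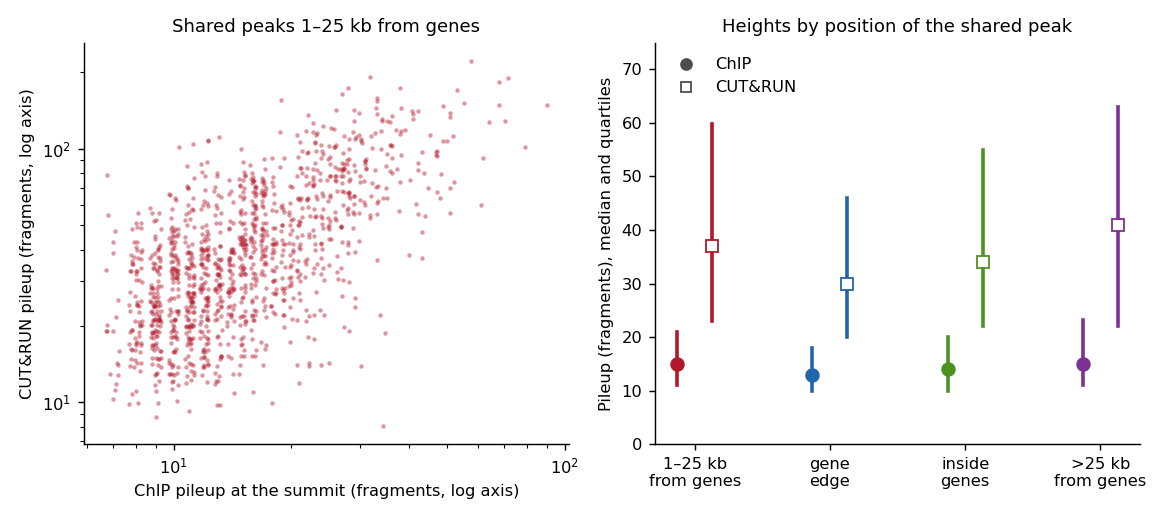
Left, ChIP pileup (x axis) against CUT&RUN pileup (y axis), both in fragments on log axes, for the 1262 shared peaks 1 to 25 kb from genes outside high-background regions; points are spread by under 0.3 to show ties. Right, median (symbol) and quartiles (line) of both pileups by position of the shared peak; the medians 1 to 25 kb from genes are 15 in ChIP and 37 in CUT&RUN, against 13 and 30 at gene edges.

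Within the 1262 peaks whose ChIP background was ordinary, heights in the assays went together, with a Spearman correlation of 0.60 across peaks. The same value was 0.42 over 3812 edge peaks, 0.58 over 3318 peaks inside genes and 0.64 over 235 peaks over 25 kb from genes. Peaks of 1 library share its depth and are not independent replicates, so these values are a description. ChIP pileups of the 1262 ran over a range of 7 to 90 fragments and CUT&RUN pileups over 8 to 222.

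Summits of the assays lay close together between genes. The median distance between the ChIP summit and the summit of the best overlapping CUT&RUN peak was 29 bp (quartiles 13 and 58), and 70.2% lay within 50 bp. Edge peaks had a median of 45 bp with 54.7% within 50 bp. Peaks inside genes (31 bp, 68.6%) and far from genes (29.5 bp, 68.7%) were near the first values. The ChIP peaks between genes had a median width of 305 bp against 328 bp at edges, and the CUT&RUN peaks 176 against 188 bp. Most, 1227 of 1286, overlapped 1 CUT&RUN peak, 50 overlapped 2, and 9 overlapped 3 or more.

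**Figure D2:**
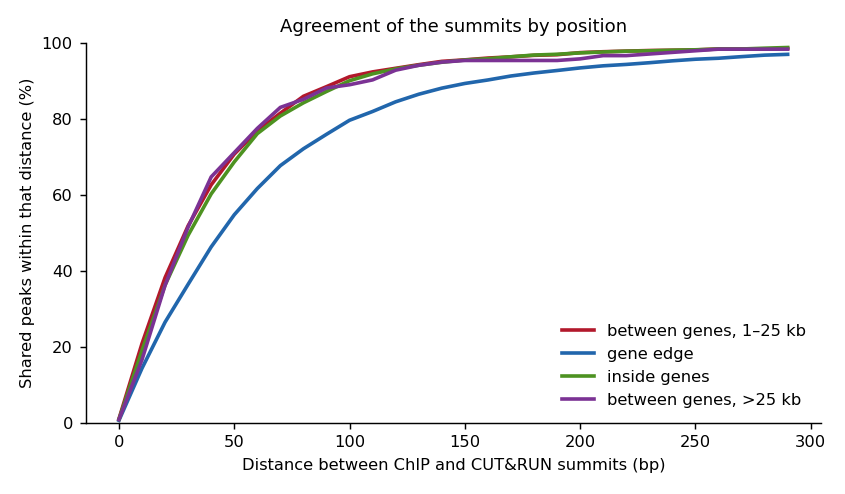
Share of shared peaks (y axis, percent) whose ChIP and CUT&RUN summits lie within a given distance (x axis, bp), by position, outside high-background regions. The lines for peaks between and inside genes run together, near 70% at 50 bp, and the line for gene edges runs below them at 54.7%.

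The share of ChIP peaks that overlapped a CUT&RUN peak at this distance from genes was near that of the whole list, where it was 66.2%. It was 63.9% (61.7 to 66) of 2013 peaks, against 69.1% (67.8 to 70.3) at edges, 66.5% (65.2 to 67.8) inside genes and 51.2% (46.7 to 55.7) of 492 peaks over 25 kb from genes. The CUT&RUN list at this distance had 2443 peaks, of which 1404 (57.5%, 55.5 to 59.4) overlapped a ChIP peak, against 58.8% of that whole list. Among the 2013 ChIP peaks, overlap followed rank in the ChIP list: 97.9% (95.1 to 99.3) of 236 peaks in its top 10% overlapped, 78.1% of 461 between 25% and 50%, and 30.7% (26.8 to 34.9) of 521 in its lowest 25%. The 727 ChIP-only peaks at this distance had a median pileup of 9 (quartiles 8 and 11) and a median width of 174 bp.

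At the limits of the rule, the 3 peaks just inside 1 kb had summits 1003 to 1006 bp from a gene, with ChIP pileups of 7, 8 and 19 and CUT&RUN pileups of 19, 14 and 28. The 3 just outside it lay at 982 to 991 bp, with 8, 38 and 15 in ChIP and 25, 80 and 42 in CUT&RUN. The 3 just inside 25 kb lay at 24809 to 24885 bp, with 10, 22 and 16 in ChIP and 32, 96 and 29 in CUT&RUN, and the 3 just outside it lay at 25114 to 25278 bp, with 36, 36 and 15 in ChIP and 89, 62 and 81 in CUT&RUN.

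High-background regions, where the ChIP background was over 5 times the list's median, held 24 of the 1286 peaks. Their ChIP pileups spanned 25 to 12863 fragments, and 13 of the 24 had a pseudogene as nearest gene. The highest were nearest to Gm9637 (ChIP 12863, CUT&RUN 2030), Dpy19l2 (778 and 763), Gm5960 (585 and 179), Rn18s-rs5, a copy of ribosomal RNA (529 and 88), and Vmn1r-ps151 (296 and 112). The heights by position above include such peaks. Without them, the peaks between genes had a median pileup of 14 in ChIP and of 36 in CUT&RUN. Of these, 222 of 1262 (17.6%, 15.5 to 19.8) stood in the top 10% of the ChIP list. At edges the medians were 13 and 30 and the share 11.8% (10.8 to 12.9). CUT&RUN background was not screened. It was over 5 times that list's median at some of the 1262, among them peaks named below beside Ifngr2 (9.81 times), Gimap1 (8.2) and Tcra (8.52).

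The peaks thinned out with distance from genes. Per Mb of sequence at that distance there were 3.14 (2.77 to 3.54) at 1 to 2.5 kb, 2.31 at 2.5 to 5 kb, 2.02 at 5 to 10 kb, 1.68 at 10 to 15 kb, 1.47 at 15 to 20 kb and 1.13 (0.9 to 1.4) at 20 to 25 kb. Within the 1 kb outside genes the density of shared peaks was 24.1 per Mb (22.9 to 25.3), and from 25 to 50 kb it was 0.735 (0.627 to 0.855). The median distance of the peaks was 6.53 kb (lower quartile 3.1 kb). Height did not follow this course: the median ChIP pileup was 14 to 17 and the median CUT&RUN pileup 34 to 39 in every distance bin between 1 and 25 kb, and 62% to 66% of ChIP peaks overlapped a CUT&RUN peak in each. Assembly gaps were not removed from the sequence lengths.

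**Figure D3:**
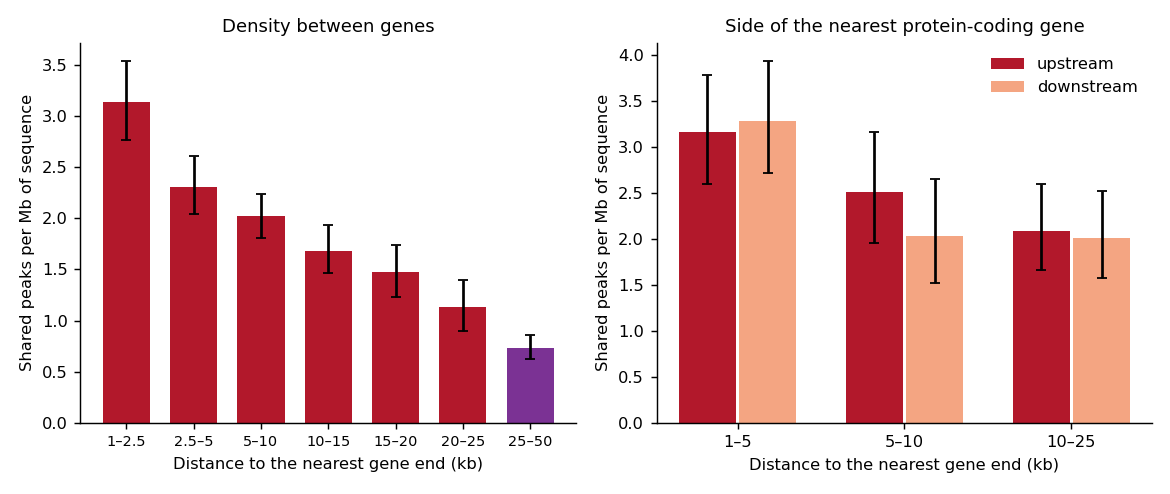
Shared Runx3 peaks per Mb of sequence (y axes) by distance to the nearest gene end (x axes, kb); bars are densities and lines their exact 95% Poisson intervals. Left, all genes: density is 3.14 per Mb at 1 to 2.5 kb, 1.13 at 20 to 25 kb and 0.735 at 25 to 50 kb; right, peaks whose nearest gene is protein-coding and has a known strand, 266 upstream and 247 downstream.

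No difference between the sides of a gene was detectable. The nearest gene was protein-coding for 639 peaks, and its strand was known for 513. Of these, 266 lay upstream of the gene (2.58 per Mb, 2.28 to 2.91) and 247 downstream (2.48 per Mb, 2.18 to 2.8). At 5 to 10 kb the densities were 2.51 (1.96 to 3.16) upstream and 2.03 (1.52 to 2.65) downstream, and these intervals overlap. Of the other nearest genes, 419 (32.6% of the peaks) were long noncoding RNAs, 172 (13.4%) pseudogenes and 16 (1.24%) miRNAs. In the gene table these kinds make up 25.6%, 19.9% and 2.48% of genes.

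The X chromosome held few of the peaks. It had 15, or 0.288 per Mb of sequence at this distance (0.161 to 0.475), and autosomes had 1.31 per Mb (chromosome 14) to 3.19 per Mb (chromosome 11). The labels do not give the sex of the mice, so the number of X copies per cell is not known. X held 1.17% (0.654 to 1.92) of the peaks between genes, 1.31% (0.974 to 1.72) of shared edge peaks and 1.02% (0.706 to 1.42) of those inside genes, and these intervals overlap.

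The best ranked peaks, by the mean of their ranks in both lists and outside high-background regions, lay beside genes of varied kinds. The first was 3.1 kb upstream of Plaur, the receptor of urokinase (chromosome 7, summit 24457838), with pileups of 72 (56.3 to 90.7) in ChIP and 190 (164 to 219) in CUT&RUN and ranks of 25 and 71. The next was 6.04 kb upstream of Gimap1, a GTPase needed for the survival of mature lymphocytes, with 58 (44 to 75) in ChIP and 222 (194 to 253) in CUT&RUN. The third lay 3.84 kb downstream of Cisd2, an iron-sulfur protein of organelle membranes, with 64 and 128. Both assays placed these peaks in the top 1% of their lists.

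Others of the first 15 had genes of lymphocytes as neighbours. A peak on chromosome 16 at 91534010 lay between Ifnar1, a chain of the type I interferon receptor, and Ifngr2, a chain of the interferon gamma receptor, 13 kb upstream of Ifngr2. It had 68 fragments (52.8 to 86.2) in ChIP and 183 (157 to 212) in CUT&RUN, with summits 6 bp apart. A peak 1.56 kb upstream of Cd72, which encodes a coreceptor known from B cells, had 41 in ChIP and 131 in CUT&RUN. A peak 9.72 kb upstream of Tspan32, a tetraspanin of blood cells, had 41 and 141. Tgfbr3, the TGF-β coreceptor betaglycan, was the nearest protein-coding gene, at 26.5 kb, of a peak with 41 and 137. The remaining peaks of the 15 were nearest to Gm36090, Gm52350, Gm5121, Paqr7, Gm39447, Adipoq, Adprhl1 and Gcnt4, with ChIP pileups of 49 to 70 and CUT&RUN pileups of 112 to 171.

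Among the peaks described here and outside high-background regions, the highest ChIP pileup was between the T cell receptor α locus Tcra and Dad1. Its summit on chromosome 14 at 54227585 lay 3.39 kb from the end of Tcra and 7.9 kb from Dad1, in the stretch where the enhancer of Tcra is known to lie. It had 90 fragments (72.4 to 111) in ChIP, rank 16, and 149 in CUT&RUN. A weaker peak 1.05 kb from Tcra, at 54225253, had 11 in ChIP and 50 in CUT&RUN. Both were picked for mention with their values known.

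Some of the peaks between genes lay near each other. With neighbouring summits within 12500 bp taken as a cluster, 404 of the 1286 peaks (31.4%) stood in 177 clusters of at least 2. There were 136 clusters of 2, 35 of 3, 3 of 4 and 3 of 5. No share expected without grouping was computed.

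Among the clusters of 5 peaks, the one with the largest summed ChIP pileup lay on chromosome 11 in the stretch after Supt4a, a transcription elongation factor, and before Mir142 and Tspoap1. Its 5 summits spanned 10.3 kb, from 87745178 to 87755519. ChIP pileups in that order were 23, 25, 36, 25 and 11 fragments, and CUT&RUN pileups were 126, 103, 92, 62 and 27. The ChIP value was highest at the third summit, although the intervals of the first 4 overlap, and the CUT&RUN values fell off from the Supt4a end. The last 3 peaks had Mir142b, which overlaps Mir142, as their nearest gene, at 5.05, 2.07 and 1.32 kb. Mir142 is a miRNA gene of blood cells, and its products are the first 2 sequences above.

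A cluster of 5 lay on chromosome 1 upstream of Cxcr4, the receptor of the chemokine CXCL12 that guides leukocytes to bone marrow and other tissues. Its summits lay 9.1, 10.5, 13.7, 19.7 and 22.6 kb from the gene. ChIP pileups were 10, 9, 10, 21 and 47 (34.5 to 62.5) fragments, and CUT&RUN pileups were 31, 28, 41, 113 and 97 (78.7 to 118). The 2 farthest peaks were the highest in both assays, and the counting intervals of the nearest 3 overlap within each assay.

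Il4ra and Il21r, the specific chains of the receptors for interleukins 4 and 21, lie next to each other on chromosome 7, and 4 peaks lay between them. From the Il4ra side to the Il21r side, ChIP pileups were 26, 36, 13 and 15 and CUT&RUN pileups 85, 135, 35 and 44. Both assays were higher on the Il4ra side, where the summits were 1.86 and 9.46 kb downstream of its end. A further peak lay 1.24 kb downstream of Il21r, with 31 in ChIP and 84 in CUT&RUN. Il21r also had a shared peak within 1 kb of an end.

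The other clusters among the first 5 were one of 5 peaks on chromosome 9 nearest to the long noncoding RNA Gm34770, and one of 4 on chromosome 10 between Os9 and B4galnt1. The first had ChIP pileups of 16, 8, 38, 36 and 9 and CUT&RUN pileups of 56, 43, 145, 103 and 58, and its nearest protein-coding gene, Rplp1, was 232 kb or more away. The other had 13, 21, 35 and 13 in ChIP and 15, 80, 95 and 32 in CUT&RUN. B4galnt1 makes gangliosides, and Os9 takes part in the removal of misfolded proteins.

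**Figure D4:**
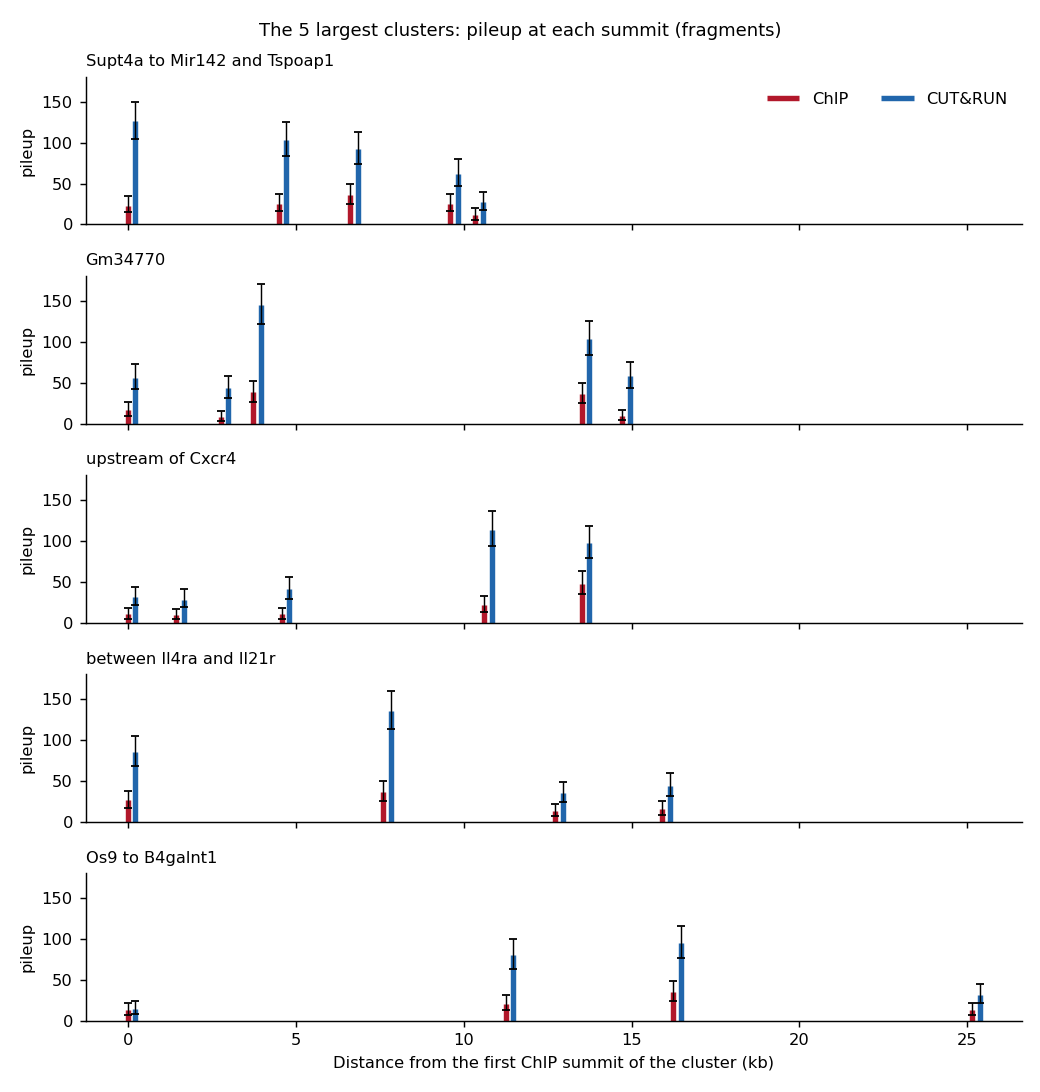
Pileup in fragments (y axes) at each summit of the 5 largest clusters, in ChIP and CUT&RUN, by distance from the first ChIP summit (x axis, kb); CUT&RUN bars are drawn 0.22 kb to the right for visibility, and lines are exact 95% Poisson intervals. In the cluster upstream of Cxcr4 the last 2 summits are the highest in both assays, with ChIP pileups of 21 and 47.

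Counted over genes, 1232 of 21631 protein-coding genes (5.70%) had at least 1 of these peaks within 25 kb and outside the gene. Of these, 996 had 1, 169 had 2, 52 had 3, 10 had 4 and 5 had 5. The 15 genes with 4 or more (0.0693% of protein-coding genes) were Cxcr4, Fasl, Zyg11b, Coa7, Rps6ka1, Cd8b1, Il4ra, Il21r, Ddx6, Rnf43, Supt4a, Tspoap1, Ccr7, Heatr5a and Emb. Neighbours share peaks: Rnf43, Supt4a and Tspoap1 counted the same 5, and Zyg11b and Coa7 the same 4.

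Genes with these peaks in their flanks held further shared peaks more often than other genes. Of the 1232, 27.6% (25.1 to 30.2) had a shared peak within 1 kb of an end and 24.7% (22.3 to 27.2) had one elsewhere inside, against 16.7% (16.2 to 17.2) and 8.73% (8.34 to 9.12) of the 20399 genes without. The intervals do not overlap, but genes were not matched on length. For 693 (56.2%, 53.4 to 59) no other shared peak lay at the gene. The shares were 16.5% and 8.79% over the 19298 genes without a peak that had sequence at this distance to hold one.

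Genes of T cell function had these peaks in their flanks more often than protein-coding genes as a whole. The lists of such genes were chosen with earlier results of these data known, so the shares below are a description and no test. The 8 lists of T cell function had them at 68 of 216 distinct genes, which is 31.5% (25.3 to 38.1) against 5.70% of all protein-coding genes. This was not particular to the peaks between genes. Shared peaks at the edges or inside also stood at list genes, from 8 of 24 cytotoxic genes to 23 of 28 of T cell receptor signalling. Outside the T cell lists they ran from 0 of 15 hepatocyte genes to 12 of 18 housekeeping genes. Among protein-coding genes, such peaks stood at 43.8% of those with a peak in the flank and 23.3% of those without. Flank sequence between genes was of similar length for T cell list genes and all protein-coding genes, with a median of 26 kb against 24 kb. In each class of flank length from 5 to 50 kb, 15.8% to 45.5% of T cell list genes had a peak in the flank. The same share was 5% to 7.35% of all genes. Within 10 kb, 48 list genes (22.2%) had a peak, against 2.84% of all protein-coding genes. As the nearest protein-coding gene of a peak, with no limit on distance, stood 74 list genes (34.3%), against 4.48%. Within 50 kb 89 list genes (41.2%) had a peak, against 9.24%. Of the 68, 24 (35.3%, 24.1 to 47.8) had at least 2 of the peaks, against 19.2% (17 to 21.5) of the 1232. The 99 peaks beside them had median pileups of 16 in ChIP and 43 in CUT&RUN, against 14 and 35 for the other 803 beside protein-coding genes outside high-background regions. In the top 10% of the ChIP list stood 24.2% (16.2 to 33.9) of the 99 and 16.3% (13.8 to 19.1) of the 803, and these intervals overlap.

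**Figure D5:**
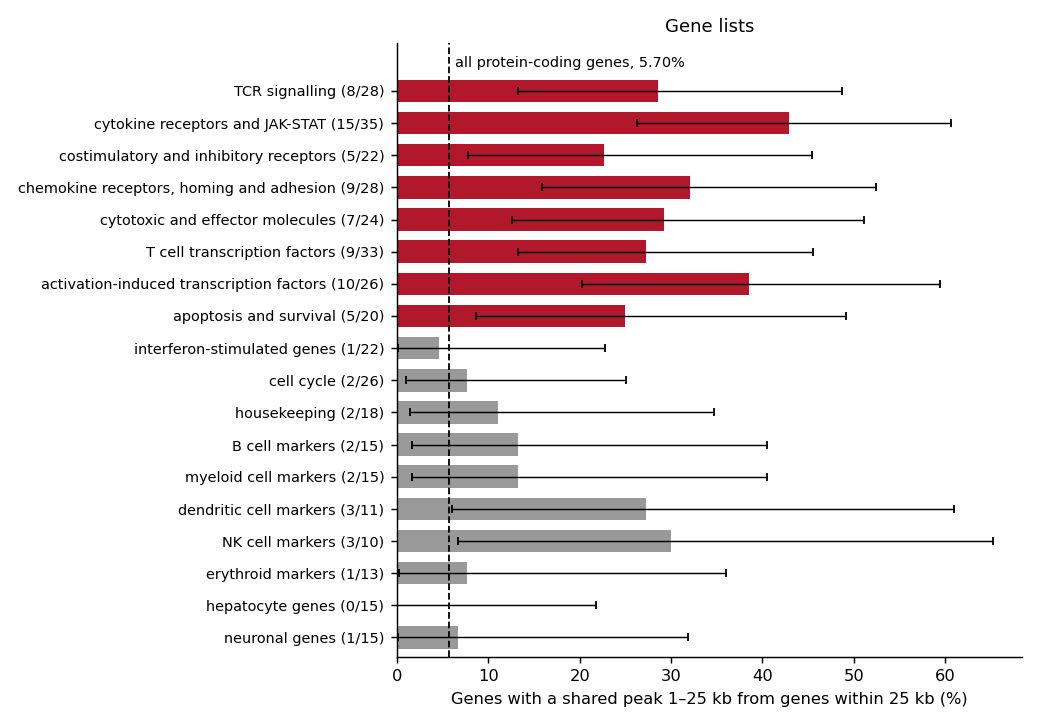
Share of each gene list (x axis, percent, with exact 95% Clopper-Pearson intervals) that had a shared Runx3 peak of the kind described within 25 kb; counts are in brackets, lists of T cell function are red and other lists grey. The 8 red lists run from 22.7% to 42.9%, all above the dashed line at 5.70% for all protein-coding genes. The lists were chosen with earlier results of these data known.

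T cell receptor signalling had such peaks at 8 of 28 genes (28.6%, 13.2 to 48.7). The best ranked was at Cblb, a ubiquitin ligase that restrains activation, 24.1 kb upstream, with 33 in ChIP and 71 in CUT&RUN. Lck, the kinase that starts the signal, had a peak 1.79 kb upstream with 26 and 102, next to its promoter peak above. Cbl, the relative of Cblb, had 38 and 57 at 4.4 kb upstream. Prkcq, the kinase PKCθ, had 30 and 56 at 12.1 kb upstream. Ptprc, which encodes CD45, had 25 and 50 at 16.4 kb upstream. Vav1 and Cd3e had a peak each. The negative regulators Cblb and Cbl had ChIP pileups at least as high as those of Lck and Prkcq, and their counting intervals overlap. In CUT&RUN the order differed, with Lck the highest at 102 (83.2 to 124). Its CUT&RUN interval overlaps that of Cblb (55.5 to 89.6) but not that of Cbl (43.2 to 73.9).

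Cytokine receptors and JAK-STAT signalling had the highest share, 15 of 35 genes (42.9%, 26.3 to 60.6). The interval treats genes as separate, although Il4ra and Il21r counted some of the same peaks, as did Ifnar1 and Ifngr2. Besides Il4ra, Il21r, Ifnar1 and Ifngr2, described above, Ifngr1, the other chain of the interferon gamma receptor, had a peak 13.7 kb upstream with 30 in ChIP and 107 in CUT&RUN, and a weaker one at 9.44 kb with 9 and 28. Il10ra, a chain of the interleukin 10 receptor, had 21 and 98 at 22.9 kb. Il6st, Il2rb, Il10rb, Socs1, Cish, Tgfbr2, Il7r, Il6ra and Il12rb1 were the rest.

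The stretch on chromosome 16 that holds Il10rb, Ifnar1 and Ifngr2 had 6 of the peaks. Their ChIP pileups from 91436673 to 91534010 were 15, 14, 20, 23, 10 and 68, and their CUT&RUN pileups were 22, 39, 48, 113, 38 and 183. The first 3 counted for Il10rb and the last 3 for Ifnar1, and the last 2 of those also for Ifngr2. Ifngr2 therefore had no peak that Ifnar1 did not count. The peak with 23 in ChIP and 113 in CUT&RUN counted for Ifnar1 and not for Ifngr2.

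Among costimulatory and inhibitory receptors 5 of 22 genes had such peaks (22.7%, 7.82 to 45.4). Cd27, a costimulatory receptor of naive and memory T cells, had 29 in ChIP and 142 in CUT&RUN at 4.57 kb upstream. Cd28, the main costimulatory receptor, had 21 and 64 at 3.75 kb, and Tnfrsf9, which encodes 4-1BB, had 27 and 43. Pdcd1, the inhibitory receptor PD-1, had 17 and 35 at 2.94 kb downstream and no shared peak at its edges or inside. Cd7 had 11 and 18.

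Chemokine receptors, homing and adhesion had 9 of 28 (32.1%, 15.9 to 52.4). Ccr9, which guides T cells to the small intestine, had 3 peaks upstream, at 12.6, 10.3 and 6.25 kb. Their ChIP pileups were 27, 28 and 15, and their CUT&RUN pileups 164, 100 and 38. Ccr7, the receptor that brings naive T cells to lymph nodes, had 4 peaks, 2 on each side of the gene. In order along the chromosome they had 12, 31, 9 and 18 in ChIP and 40, 89, 37 and 61 in CUT&RUN. Cd69, which keeps T cells in tissues, had 26 and 102 at 9.22 kb. Ccr8 and Cx3cr1 shared a peak of 16 and 65, and Ccr2 had 16 and 28 at 1.45 kb upstream. S1pr1, the receptor that lets T cells leave lymph nodes, had 9 and 25.

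Cytotoxic and effector molecules had 7 of 24 (29.2%, 12.6 to 51.1). Fasl, the ligand that kills cells through Fas, had 4 peaks and no shared peak at its edges or inside. Both flanks were occupied. ChIP pileups were 11 and 33 downstream and 13 and 16 upstream, and CUT&RUN pileups were 70 and 159 downstream and 29 and 51 upstream. The peak 1.42 kb downstream was the highest in both assays (ChIP 22.7 to 46.3, CUT&RUN 135 to 186).

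Ifng, which encodes interferon gamma, had 3 peaks and likewise no shared peak at the gene itself. The peak 21.7 kb upstream had 34 (23.5 to 47.5) in ChIP and 100 (81.4 to 122) in CUT&RUN. The others lay 15.6 and 23.4 kb on the other side, with 8 and 16 in ChIP and 37 and 58 in CUT&RUN. Klrd1 and Klrk1, receptors of killer cells, shared 2 peaks, of which the higher had 32 and 65. Klrg1, a marker of effector cells, had 10 and 45, the chemokine gene Ccl5 had 10 and 35, and Srgn, the proteoglycan of cytotoxic granules, had 8 and 37.

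T cell transcription factors had 9 of 33 (27.3%, 13.3 to 45.5). Tcf7, which encodes the naive and memory factor TCF-1, had 23 in ChIP and 82 in CUT&RUN at 16.5 kb upstream. Prdm1, the effector factor Blimp-1, had 23 and 65 at 7.51 kb downstream. Bach2 had 14 and 66, Ets1 21 and 36, and Tox 17 and 28. Zeb2, Satb1 and Id3 had 1 peak each.

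Runx3 itself had 2 of the peaks upstream, in addition to the promoter peak printed above. At 22 kb upstream the pileups were 21 in ChIP and 58 in CUT&RUN, and at 11.8 kb they were 12 and 24. The promoter peak, with 58 and 180, was higher than both, and its ChIP interval does not overlap theirs.

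Activation-induced transcription factors had 10 of 26 (38.5%, 20.2 to 59.4). Egr1, an immediate early zinc finger factor, had 42 (30.3 to 56.8) in ChIP and 83 in CUT&RUN at 4.83 kb. Egr3 had 3 peaks, with 15, 21 and 13 in ChIP and 56, 42 and 35 in CUT&RUN. Of the AP-1 genes, Fos had 23 and 77 at 5.07 kb upstream, Fosb 23 and 42, Jund 28 and 39 and Junb 10 and 28. Nr4a1, an orphan nuclear receptor that follows T cell receptor signals, had 15 and 78 at 7.34 kb upstream. Nr4a3, Myc and Nfkbia were the rest. Apoptosis and survival had 5 of 20 (25%, 8.66 to 49.1), at Bak1 (29 and 65), Bcl2 (18 and 49), Bbc3 (17 and 55), Traf1 (15 and 42) and Pmaip1 (13 and 25).

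The coreceptor genes Cd8b1 and Cd8a had 4 of these peaks between them, at 71341421, 71342973, 71357739 and 71369621 on chromosome 6, and 1 more at 71307765 on the other side of Cd8b1. ChIP pileups of the 4 were 14, 20, 15 and 16, and CUT&RUN pileups 28, 21, 42 and 41. ChIP values were within each other's counting intervals. None of the 4 reached the upper quartile of the peaks between genes, 21 in ChIP and 59.8 in CUT&RUN.

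Shares in the lists outside T cell function varied. Interferon-stimulated genes had 1 of 22 (Usp18, ChIP 10, CUT&RUN 20), cell cycle genes 2 of 26 (Cdkn1b, an inhibitor of cyclin-dependent kinases, with 32 and 101, and E2f2 with 10 and 13) and housekeeping genes 2 of 18 (Actb and Rpl13a). The intervals of these 3 lists hold 5.70%.

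Markers of other cells that a spleen preparation could hold, with hepatocyte and neuronal genes, had such peaks at 12 of 94 distinct genes in 7 lists, 12.8% (6.77 to 21.2), an interval above 5.70%. B cell markers had 2 of 15 (among them Cd72), myeloid markers 2 of 15 (Fcgr1 and Adgre1), dendritic cell markers 3 of 11 (27.3%, 6.02 to 61; Ccr7, Cd209a and Xcr1) and NK cell markers 3 of 10 (30%, 6.67 to 65.2; Klre1, Il2rb and Klrb1c). The shares of dendritic and NK cell markers were as high as those of several T cell lists. Ccr7 and Il2rb also stood in T cell lists, and the peak of Cd209a lay in a high-background region. The peaks of Klre1 were the same as those of Klrd1 and Klrk1, and the peak of Adgre1 was that of Vav1. These marker shares are therefore not separate from those of the T cell lists. Erythroid markers had 1 of 13 (Tfrc), neuronal genes 1 of 15 (Camk2a) and hepatocyte genes 0 of 15 (exact upper limit 21.8%). Peaks are not expression, and the part of other cells in the preparation was not tested.

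MicroRNA genes had these peaks in their flanks about as often as protein-coding genes, at 72 of 1228 (5.86%). The Mir23a cluster on chromosome 8, which makes miR-23a, miR-27a and miR-24, had 3 of them at 9.94, 4.84 and 11.1 kb from Mir23a. Their ChIP pileups were 33, 14 and 9 and their CUT&RUN pileups 155, 33 and 40, so the peak at 9.94 kb was the highest in both assays. The same peaks lay within 25 kb of Mir181c and Mir181d, whose shared seed is printed above.

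Mir150, a miRNA gene of mature lymphocytes, had 2 peaks. The nearer, at 7.2 kb, had 17 in ChIP and 33 in CUT&RUN, and the other had 13 and 23. Rpl13a of the housekeeping list counted both too. The let-7 genes on chromosome 13 had 2 peaks, nearest to Mirlet7a-1, with 11 and 8 in ChIP and 70 and 41 in CUT&RUN. Mir146, which makes miR-146a and is known as a brake on NF-κB signalling, had 10 and 43 at 15.4 kb. The let-7 genes that share a seed lie at 1 locus and count the same peaks, as do Mir181c and Mir181d.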

How the data were processed

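Per the submitters' processing notes, alignment used Bowtie and mm10, and peaks came from MACS2, whose version was 2.1.1.20160309, per the file headers. The authors called ChIP peaks against the whole cell extract at q of 0.05 and CUT&RUN peaks without a control at q of 1e-05, per the file headers. They kept at most 1 fragment per position, which removed 80.3% of ChIP and 21.4% of CUT&RUN fragments. Per the file headers, the deposited pileup is a signal in fragments over the summit. The deposited −log10 p and −log10 q values and the fold enrichment, a ratio, are each peak's own values. The CUT&RUN list had the stricter threshold, and its folds come from its own surroundings, so heights were not compared between assays.

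Overlaps (checked with bedtools 2.31.1), distances, clusters and gene counts were computed in Python 3.11.15 with pandas 2.3.3 and scipy 1.17.1. These steps were also tested on simulated data. Genes were 49554 spans of RefSeq GRCm38.p6 (mm10) on chromosomes 1 to 19 and X. Strand came from RefSeq promoter entries. Peaks were ranked within a list by q, then pileup. The background of a peak was recomputed as pileup plus 1, divided by fold, minus 1. Shares have exact 95% Clopper-Pearson and pileups and densities exact 95% Poisson intervals. These cover counting error only, since each assay had 1 library. Intervals of gene shares treat genes as separate, although neighbouring genes can count the same peak.

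The peaks and the 18 gene lists (376 of 378 entries matched) were chosen with earlier results of these data known, and no chance test was run. The text names the 15 best ranked peaks outside high-background regions, listed genes with a peak (up to 6 with values per list), the 5 largest clusters, genes with 4 or more peaks, the peaks at each limit and the 5 highest in high-background regions. Genes of lists beyond 6, the coreceptor, Tcra and miRNA peaks with values were added after their values were seen. The sequence under the peaks was not used here, so the planned motif search at them was not made. A few listed genes are counted but not reported here by name.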

Additional observations from a re-analysis of the deposited data

How the results depend on the processing

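Of 38 alternative values for the main results, 34 kept within 1.5 times the main count or inside the interval of the main value, and 4 moved, all with ChIP peaks limited to q of 1e-05 or less. There the median ChIP pileup was 17, the median CUT&RUN pileup 42, the median distance between summits 26.5 bp, and 80.9% of ChIP peaks at this distance from genes overlapped a CUT&RUN peak. That limit removes low peaks by its construction. Among the 34, the count of genes with a peak within 25 kb could not change when the distance limit was 50 kb. The peaks so added lie over 25 kb from every gene. The number of peaks was 1247 with an overlap of 0.5 of the shorter peak, 1180 with summits within 100 bp, 976 at the stricter q and 863 with a limit of 10 kb. With protein-coding genes alone as the gene table, it was 1276, and 1629 genes had such a peak. Only the number was alike, since the 373 peaks without a protein-coding gene within 25 kb cannot be among the 1276. Genes of the 8 T cell lists with a peak numbered 48 within 10 kb, 74 by nearest protein-coding gene, 89 within 50 kb and 60 at the stricter q (27.8%, against 4.56% of all protein-coding genes). Single lists were small, and 20 of 72 alternative counts moved by over 1.5 times. T cell transcription factors had 17 genes by nearest protein-coding gene, which sets no limit on distance, against 9. The motif search at the peaks, with its alternative windows of 100 bp, was not run. No paired analysis was possible because each group had 1 library. With 1 library per assay none could be left out, and depth limits weak peaks most: a ChIP pileup of 8 has an interval of 3.45 to 15.8.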
